A study of Mus musculus with 7 samples.

Results

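The genes described here encode the nuclear-encoded parts of the mitochondrial respiratory chain and of ATP synthase. They were taken from the count table by symbol, as protein-coding genes whose mouse symbol begins with Nduf, Uqcr or Atp5, together with Sdha, Sdhb, Sdhc and Sdhd. Of 21965 genes in the table, 76 matched, and the 75 with a mean count of 10 or more over the 7 libraries were kept. The one left out was a second gene annotated as Atp5o (ENSMUSG00000116933), which overlaps Atp5o on the same strand and had 0 counts. The 75 genes comprise 46 of complex I, 4 of complex II, 8 of complex III and 17 of complex V, all of which passed the filter on low counts. Complex IV has symbols of another form and is given below among the related pathways.

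RNA came from the epicenter of a contused mouse spinal cord, 3 days after a moderate injury at T9 (50 kdyn force, 400 to 600 µm displacement), as a 5 mm segment with all its cell types. The mice were 8 to 10 weeks old by the study's methods, and all were on a C57BL/6 background. One group was Bmal1-/-, homozygous in the germ line for the Arntl tm1Bra allele (B6.129-Arntltm1Bra/J), with 2 females and 1 male. The other was C57BL/6 WT with 2 females and 2 males, 1 of them a littermate of the knockouts. By the study's methods, WT mice that were not littermates were bought from the Jackson Laboratory, while the knockouts were bred from heterozygous parents. Apart from the littermate, origin and rearing therefore differ together with genotype and cannot be told apart from it. Both groups were injured and no uninjured library was analysed here, so a value shows the state of injured tissue only. Bmal1, also called Arntl, encodes the BMAL1 transcription factor of the circadian clock, which binds DNA together with CLOCK. The comparison asks how the injured tissue differs when BMAL1 is missing from all cells throughout life.

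The respiratory chain passes electrons from NADH and succinate to oxygen and pumps protons across the inner mitochondrial membrane. Complex I takes electrons from NADH, complex II takes them from succinate as part of the tricarboxylic acid cycle, and complex III hands them on to cytochrome c. Complex V, the ATP synthase, lets the protons flow back through its membrane ring and makes ATP in its F1 head. Most subunits are encoded in the nucleus and a few in mitochondrial DNA, so both genomes have to supply each of complexes I, III and V. In spinal cord these genes are used by every cell type, and neurons depend on them heavily.

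The libraries held 38529644 to 44096737 counts, and the genes described here made up 0.924 to 0.966% of them in Bmal1-/- and 0.838 to 0.888% in WT. Arntl itself was counted at 13.8 ± 1.503 CPM (library-scaled counts, by TMM, with the SD over n = 4) in WT, and in the 3 libraries labelled Bmal1-/- at 23.6 ± 0.941 CPM. A gene-level count includes exons outside the deleted part and so cannot check the deletion, and below a Bmal1-/- library means one labelled so. Dbp, a direct clock target, was counted at 8.45 ± 0.566 CPM in Bmal1-/- and at 30.4 ± 6.199 CPM in WT. WT replicate 3, from a male like WT replicate 4, stood apart from the other WT libraries. Its 14 neuron markers summed to 3074 CPM, against 5234 to 7110 in the other WT libraries and 7309 to 8688 in Bmal1-/-. Its 10 macrophage markers summed to 13979 CPM, against 5951 to 9029 in the other WT libraries and 7522 to 8892 in Bmal1-/-. Skeletal muscle markers summed to 29.6 to 33.2 CPM in Bmal1-/- and 91.6 to 114.6 in WT. The part of these differences in the results below was not tested, except where values without WT replicate 3 are given.

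Promoters are shown for 3 members because the clock protein and the usual regulators of respiratory genes read short DNA motifs there. BMAL1 with CLOCK binds the E-box CACGTG, nuclear respiratory factor 1 (NRF1) binds a GC-rich palindrome, and estrogen-related receptors bind TCAAGGTCA. Sdha carries NRF1 motifs, Ndufv1 is among the 5 largest differences and carries an E-box, and Atp5g3 carries an E-box and the receptor motif. The sequences are from RefSeq on GRCm38.p6, on the gene's own strand from 5′ to 3′. They begin 250 bases before the RefSeq start and end where GENCODE begins the gene, with motifs in capitals. The capitals in Atp5g3 are the E-box and the receptor motif read on the opposite strand.
Sdha, minus strand, chr13:74350281-74350490: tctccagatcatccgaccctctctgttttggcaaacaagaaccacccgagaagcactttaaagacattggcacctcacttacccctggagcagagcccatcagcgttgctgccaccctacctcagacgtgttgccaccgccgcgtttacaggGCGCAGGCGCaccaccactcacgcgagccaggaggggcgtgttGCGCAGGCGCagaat
Ndufv1, minus strand, chr19:4012807-4013005: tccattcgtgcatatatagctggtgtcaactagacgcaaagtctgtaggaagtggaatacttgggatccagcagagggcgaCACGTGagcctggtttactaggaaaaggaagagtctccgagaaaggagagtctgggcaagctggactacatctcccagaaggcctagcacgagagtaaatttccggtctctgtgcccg
Atp5g3, minus strand, chr2:73911327-73911576: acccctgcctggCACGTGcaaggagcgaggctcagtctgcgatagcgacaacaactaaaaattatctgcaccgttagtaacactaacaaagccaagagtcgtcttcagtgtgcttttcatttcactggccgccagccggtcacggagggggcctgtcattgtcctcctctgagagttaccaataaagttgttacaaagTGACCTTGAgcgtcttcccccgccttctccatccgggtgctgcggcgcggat

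In the windows of 300 bases around the start (250 before and 50 after), searched on both strands, 61 of the 75 members had a sequence. Those without one included Ndufa2, Ndufb9, Ndufaf6, Ndufs1, Ndufa4l2, Sdhc, Uqcrb, Uqcrq, Uqcrc2, Atp5a1, Atp5mpl, Atp5f1 and Atp5s. An E-box stood in 5 of the 61, 8.20%, against 8.91% of the 17492 protein-coding genes with a window. The 5 were Atp5g1, Atp5g3, Atp5l, Ndufa7 and Ndufv1. The NRF1 motif stood in 18 of 61 members, 29.5%, against 7.17% of all genes. The motif of YY1, a general activator (AAGATGGCG), stood in 8, 13.1% against 2.14%. The ETS motif that GABP binds (CCGGAAGT) stood in 4, 6.56% against 5.69%, and the receptor motif in 2, Atp5g3 and Sdhd, 3.28% against 0.377%. A match is a description of letters and does not show binding.

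None of the 75 genes passed the test for a difference between genotypes, yet a large share of them were counted slightly higher in every Bmal1-/- library than in any WT library. The test was edgeR's quasi-likelihood test over all 15743 genes that passed its count filter, with p-values adjusted by Benjamini-Hochberg and a threshold of 0.05. It called 1.57% of all genes and 0 of the 75 members in either direction. At an unadjusted p under 0.05, 25 members were higher in Bmal1-/- (33.3%), where 8.64% of all genes were, and 0 were lower, where 12.2% of all genes were. The groups did not overlap in 36 members, 48% of them, all with Bmal1-/- above WT. Among all genes the groups did not overlap with Bmal1-/- above in 13.4% and with Bmal1-/- below in 13.5%. The log2 fold change (Bmal1-/- minus WT) was positive in 64 of 75, with a median of 0.11 against -0.01 for all genes tested. The members share their 7 libraries and are not independent of each other. In bulk tissue, fewer cells of a type and less RNA per cell cannot be told apart.

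The counts at an unadjusted p depended on which library was left out, while the number without overlap can only stay or grow when there are fewer libraries. Members higher at an unadjusted p under 0.05 numbered 25 with all libraries, 8 without Bmal1-/- replicate 3, 13 without Bmal1-/- replicate 2 and 15 without WT replicate 1. Fewer of all genes were called in these fits too. Those higher at an edgeR adjusted p under 0.05 numbered 103, 43, 46 and 41 in the same order. The share of all genes at an unadjusted p is not given for the fits without those libraries. The log2 fold change was positive in 59 to 70 members over the 7 fits that each left out 1 library. Without WT replicate 3, 41 members did not overlap with Bmal1-/- above (54.7%, against 15.5% of all genes), 30 had an unadjusted p under 0.05 and were higher (40.0%, against 11.2%), and 70 had a positive log2 fold change. That fit called 2 members higher, Ndufa6 among them, where 1.86% of all genes were called higher, and 0 members lower, where 2.8% of all genes were. DESeq2, the test the study used, called 14 members higher and 0 lower, where it called 3.51% of all genes higher and 5.63% lower. The 14 included Ndufs3, Ndufs4, Ndufs5, Ndufv3, Ndufa4, Ndufa6, Ndufa10, Ndufb10, Sdhb, Uqcrc2, Uqcrfs1, Atp5c1 and Atp5f1.

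**Figure D1:**
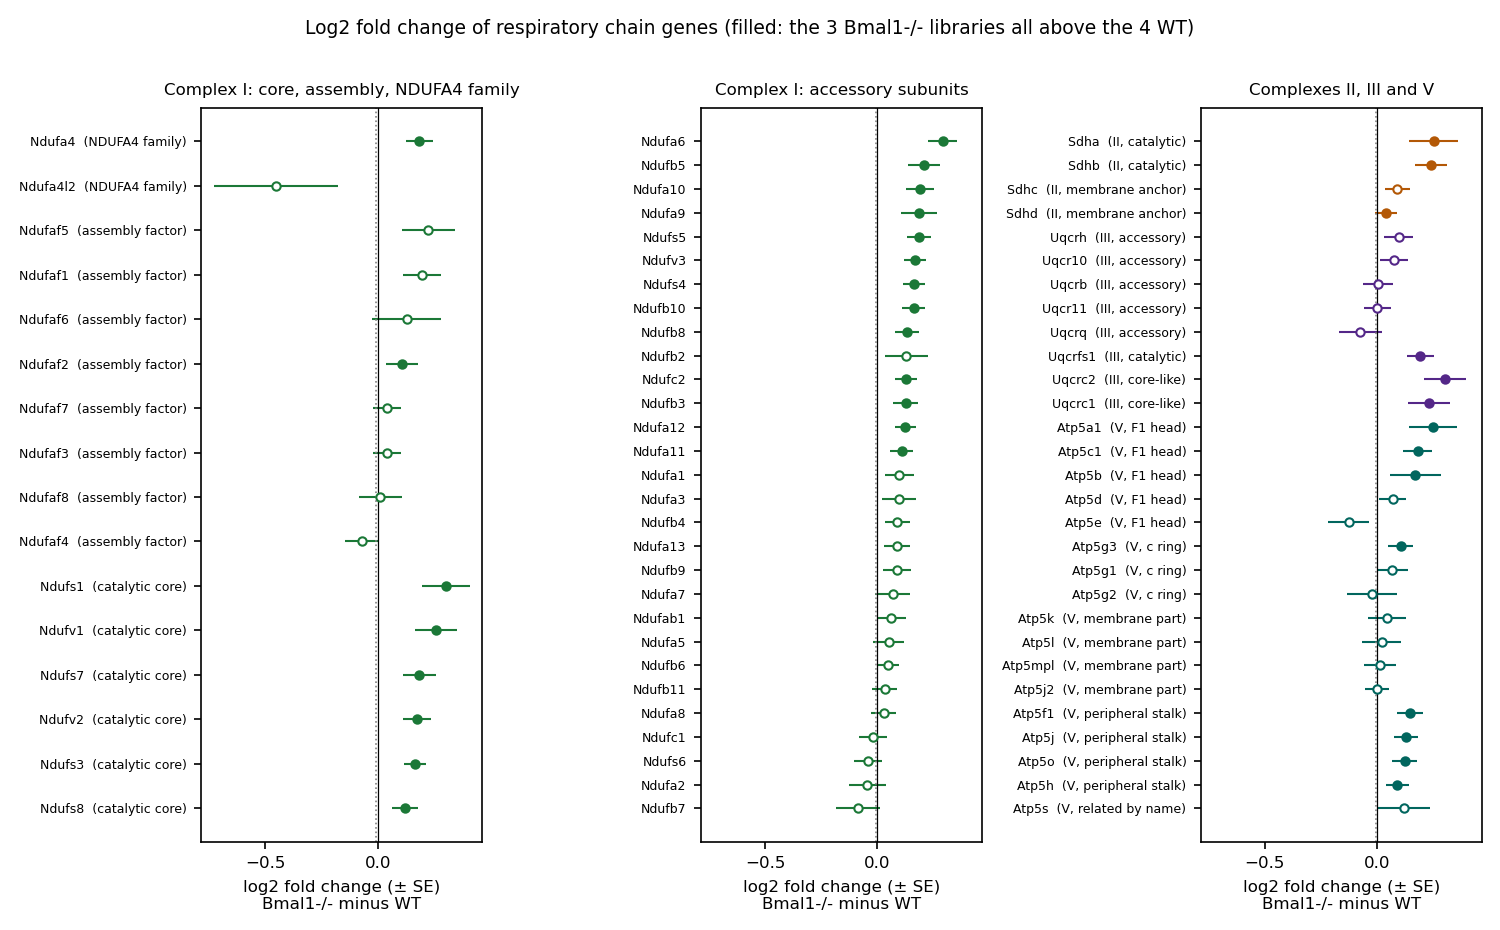
Log2 fold change of the genes, with 1 not drawn (Bmal1-/- minus WT, horizontal axis) with its standard error from edgeR, in 3 panels by complex and role. Filled points are genes whose 3 Bmal1-/- libraries all lie above the 4 WT libraries, the solid line is 0 and the dotted line the median of all genes tested (-0.01). The core genes of complex I drawn here are all filled, while the accessory genes of complex III and the membrane genes of complex V sit near 0.

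In the core of complex I every gene was higher in each Bmal1-/- library than in any WT library. Its 7 nuclear-encoded core subunits include those that carry the flavin and the iron-sulfur clusters that move electrons from NADH to ubiquinone. In all 7 the groups did not overlap (100%, against 13.4% of all genes with Bmal1-/- above). At an unadjusted p under 0.05, 6 were higher (85.7%, against 8.64% of all genes). The median log2 fold change was 0.19 (0.17 without WT replicate 3). Ndufs3, a subunit of the arm that reaches into the matrix, was counted at 67.0, 70.5 and 70.6 CPM in Bmal1-/- replicates 1 to 3 and at 61.2, 62.3, 61.4 and 62.5 CPM in WT replicates 1 to 4. The libraries within each group lay close together, and all Bmal1-/- libraries lay above all WT libraries. The log2 fold change was 0.17 (edgeR adjusted p = 0.137), and 28.2% of the 75-base stretches of its longest transcript also occur in other genes.

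Ndufs1 (chromosome 1, 63143596 to 63176833), the largest iron-sulfur subunit, was counted at 143, 154 and 167 CPM in Bmal1-/- and at 132, 138, 104 and 126 CPM in WT. WT replicate 3 was the lowest and Bmal1-/- replicate 3 the highest library. The log2 fold change was 0.30 (SE 0.11, edgeR adjusted p = 0.188). Ndufv1 (chromosome 19, 4007384 to 4012806) encodes the subunit that binds NADH and the flavin, and its promoter with an E-box is printed above. It was counted at 152, 158 and 174 CPM in Bmal1-/- and at 140.0, 143, 115 and 142 CPM in WT, again with WT replicate 3 lowest. Its log2 fold change was 0.26 (SE 0.09, edgeR adjusted p = 0.195) and 0.19 without WT replicate 3. Ndufs7, Ndufs8 and Ndufv2, also of the core, had log2 fold changes of 0.12 to 0.19.

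The accessory subunits of complex I surround the core and stabilise it. Of 29 measured, 25 had a positive log2 fold change and the median was 0.10. The groups did not overlap in 13 (44.8%, against 13.4% of all genes with Bmal1-/- above). At an unadjusted p under 0.05, 10 were higher (34.5%, against 8.64% of all genes). Ndufa6 (chromosome 15, 82350140 to 82354322), of the LYR protein family, had the smallest p among the accessory genes. It was counted at 86.6, 90.3 and 94.5 CPM in Bmal1-/- and at 73.4, 77.2, 68.0 and 77.1 CPM in WT. The Bmal1-/- libraries all lay above WT, with a log2 fold change of 0.29 (SE 0.06, edgeR adjusted p = 0.0797), 22.4% higher. Without WT replicate 3 the log2 fold change was 0.25 and the edgeR adjusted p 0.0410. Ndufb7, an intermembrane-space subunit, was counted at 91.0, 82.0 and 80.9 CPM in Bmal1-/- and at 83.2, 82.4, 104.6 and 89.2 CPM in WT. Its highest library was WT replicate 3 and its groups overlapped, with a log2 fold change of -0.09 (95% interval -0.31 to 0.14) that was -0.01 without that library. Ndufa2, the complex I gene of highest level per length, was counted at 69.7 to 73.1 CPM in Bmal1-/- and 68.0 to 84.0 CPM in WT, a log2 fold change of -0.05 (95% interval -0.24 to 0.15) that was 0.02 without WT replicate 3.

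The 8 assembly factors help to build complex I and leave it when it is finished. They were less abundant and gave no member with an unadjusted p under 0.05. Among all genes, 8.64% were higher and 12.2% lower at that p. One of the 8, Ndufaf2, did not overlap (12.5%, near the 13.4% of all genes with Bmal1-/- above). The median log2 fold change was 0.08. The largest of the 8 was Ndufaf5 with 0.22 (95% interval -0.05 to 0.50). Ndufaf4 was counted at 24.2, 24.9 and 24.5 CPM in Bmal1-/- and at 24.4, 28.7, 24.9 and 25.0 CPM in WT. Its WT replicate 2 was higher than the other 6 libraries, and its log2 fold change was -0.07 (95% interval -0.25 to 0.11).

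Ndufa4 and Ndufa4l2 carry complex I names by history. Ndufa4 is now placed in complex IV, and Ndufa4l2 is its paralog that is induced in low oxygen and is high in pericytes of the central nervous system. Ndufa4 was counted at 173, 177 and 186 CPM in Bmal1-/- and at 158, 164, 149 and 158 CPM in WT. The groups did not overlap and the log2 fold change was 0.19 (SE 0.06, edgeR adjusted p = 0.168). Ndufa4l2 was counted at 4.68, 4.29 and 2.74 CPM in Bmal1-/- and at 5.00, 4.29, 7.74 and 4.34 CPM in WT. Its 2 extremes were Bmal1-/- replicate 3 and WT replicate 3, the groups overlapped, and the log2 fold change was -0.45 (95% interval -1.10 to 0.19), or -0.22 without WT replicate 3. The 9 pericyte markers summed to 437, 492 and 398 CPM in Bmal1-/- and to 497, 553, 579 and 517 CPM in WT, in both groups extreme in the same libraries as Ndufa4l2, and their part in its value was not tested.

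**Figure D2:**
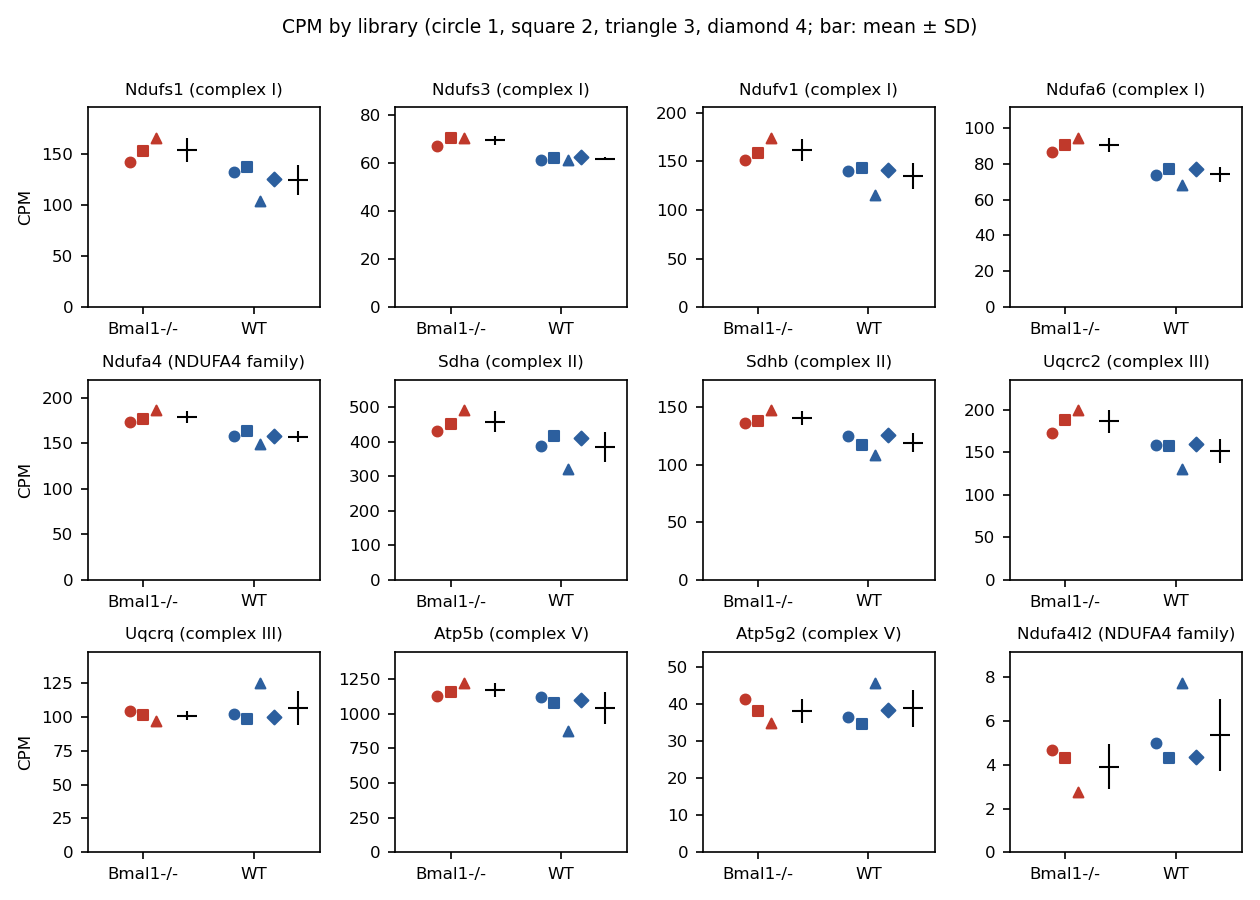
CPM of 12 named members in each library (vertical axis from 0), with Bmal1-/- in red, WT in blue, a marker shape for each replicate number, and the mean ± SD as a bar. Ndufa6 runs from 86.6 to 94.5 CPM in Bmal1-/- and from 68.0 to 77.2 in WT, whereas Uqcrq, Atp5g2 and Ndufa4l2 overlap between groups and have WT replicate 3 (triangle) as their highest library.

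Complex II has 4 subunits, all encoded in the nucleus. The catalytic pair were higher in each Bmal1-/- library than in any WT library, and the membrane anchors had smaller log2 fold changes. Sdha (ENSMUSG00000021577, chromosome 13, 74322254 to 74350280, minus strand) encodes the flavoprotein that oxidises succinate. It was counted at 431, 451 and 491 CPM in Bmal1-/- and at 388, 417, 322 and 411 CPM in WT. The groups did not overlap, and the lowest library was WT replicate 3. The log2 fold change was 0.25 (SE 0.11, edgeR adjusted p = 0.244) and 0.17 without WT replicate 3.

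Sdhb (chromosome 4, 140961203 to 140979193), the iron-sulfur subunit, was counted at 136, 138 and 147 CPM in Bmal1-/- and at 125, 117, 108 and 126 CPM in WT. The groups did not overlap, and the log2 fold change was 0.24 (SE 0.07, edgeR adjusted p = 0.148, DESeq2 adjusted p = 0.0308). Sdhc, a membrane anchor, was counted at 141, 136 and 135 CPM in Bmal1-/- and at 126, 125, 136 and 129 CPM in WT. WT replicate 3 lay within the Bmal1-/- range, and the log2 fold change was 0.09 (95% interval -0.04 to 0.22). Sdhd, the other anchor, was counted at 112, 111 and 112 CPM in Bmal1-/- and at 107.6, 110.3, 110.3 and 106 CPM in WT. Its groups did not overlap although they differed by little, with a log2 fold change of 0.04 (95% interval -0.07 to 0.15).

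In complex III the groups did not overlap in 3 of the 8 genes (37.5%, against 13.4% of all genes with Bmal1-/- above). All 3 lay outside the small accessory subunits. Uqcrc1 and Uqcrc2 form its large matrix-side part and Uqcrfs1 is the Rieske iron-sulfur protein that passes electrons on. All 3 were higher at an unadjusted p under 0.05 (37.5% of the 8, against 8.64% of all genes), and their groups did not overlap. Uqcrc2 (chromosome 7, 120635176 to 120659524, plus strand) was counted at 173, 188 and 199.5 CPM in Bmal1-/- and at 159, 157.5, 129.9 and 159 CPM in WT. WT replicate 3 lay well below the other 3 WT libraries, and the log2 fold change was 0.30 (SE 0.09, edgeR adjusted p = 0.157, DESeq2 adjusted p = 0.0419) or 0.23 without that library. Of the 75-base stretches of its longest transcript, 23.8% also occur in Pdzd9, which overlaps it on the opposite strand.

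Uqcrc1 was counted at 231, 243 and 265 CPM in Bmal1-/- and at 222, 218, 181 and 220.4 CPM in WT, a log2 fold change of 0.23 (SE 0.09). Uqcrfs1 was counted at 118, 126 and 128 CPM in Bmal1-/- and at 108.9, 114, 103.9 and 108.9 CPM in WT, a log2 fold change of 0.19 (SE 0.06). Both were lowest in WT replicate 3. None of the 5 accessory subunits (Uqcrb, Uqcrq, Uqcrh, Uqcr10 and Uqcr11) had groups that did not overlap or an unadjusted p under 0.05. Among all genes, 13.4% did not overlap with Bmal1-/- above, and 8.64% were higher at an unadjusted p under 0.05. The median log2 fold change of the 5 was 0.00, or 0.05 without WT replicate 3. Uqcr10, the complex III gene of highest level per length, was counted at 113, 105 and 108 CPM in Bmal1-/- and at 98.05, 99.4, 109.9 and 105 CPM in WT, a log2 fold change of 0.07 (95% interval -0.07 to 0.22). Uqcrq was counted at 104, 101 and 97.1 CPM in Bmal1-/- and at 102, 98.2, 125 and 100.03 CPM in WT. WT replicate 3 was its highest library, and the log2 fold change of -0.08 (95% interval -0.30 to 0.15) became 0.01 without it.

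In ATP synthase the groups did not overlap in 3 of 5 genes of the F1 head, 4 of 4 of the peripheral stalk, 1 of 3 of the c ring and 0 of 4 of the membrane part. Over complex V this was 47.1%, against 13.4% of all genes with Bmal1-/- above. The parts hold few genes each, and differences between them were not tested. The median log2 fold change was 0.17 in the head and 0.02 in the membrane part with all libraries, but 0.09 and 0.06 without WT replicate 3. In the F1 head, where ATP is made, the 3 were Atp5a1, Atp5b and Atp5c1. Atp5b, the catalytic beta subunit and the complex V gene of highest level per length, was counted at 1131, 1160 and 1225 CPM in Bmal1-/- and at 1118, 1080, 874 and 1098 CPM in WT. Its groups did not overlap, though WT replicate 1 came close to Bmal1-/- replicate 1. The log2 fold change was 0.17 (SE 0.11, edgeR adjusted p = 0.387), and 0.09 without WT replicate 3. Atp5e, the small epsilon subunit of the same head, was counted at 89.8, 89.5 and 82.6 CPM in Bmal1-/- and at 88.9, 87.3, 110.4 and 94.8 CPM in WT. WT replicate 3 was again the extreme, here as the highest library, with a log2 fold change of -0.13 (95% interval -0.34 to 0.09) that was -0.05 without it.

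The 4 peripheral stalk genes (Atp5f1, Atp5h, Atp5j and Atp5o), which hold the head still against the rotor, all had groups that did not overlap, with log2 fold changes of 0.09 to 0.15. Of the 75-base stretches of Atp5f1, Atp5h and Atp5o, 27.9 to 39.1% occur in other genes on either strand. Atp5f1 and Atp5o overlap other genes at their own position, so a shared stretch need not come from a copy elsewhere. The effect of sharing on their counts was not tested. The 4 membrane genes (Atp5j2, Atp5k, Atp5l and Atp5mpl) had log2 fold changes of at most 0.04. Atp5l shares 76.0% of its 75-base stretches with other genes and is uncertain. Atpif1, the inhibitor of ATP synthase, and Usmg5, another small membrane subunit, carry other symbols and are not among the 75. Atpif1 was at 97.8 ± 3.02 CPM (SD, n = 3) and 99.1 ± 2.88 CPM (SD, n = 4), and Usmg5 at 86.4 ± 0.850 and 77.9 ± 3.31 CPM.

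The c ring that turns in the membrane is built from one protein that 3 genes encode with different targeting sequences. Atp5g3 supplied most of the counts, with 261, 256 and 259 CPM in Bmal1-/- and 233, 245, 239 and 246 CPM in WT. Its groups did not overlap, and the log2 fold change was 0.10 (95% interval -0.03 to 0.24). Atp5g1 was counted at 103, 99.6 and 109.6 CPM in Bmal1-/- and at 99.6, 108, 92.5 and 97.7 CPM in WT, and Atp5g2 at 41.4, 38.0 and 34.8 CPM and at 36.3, 34.6, 45.7 and 38.3 CPM. Both overlapped between groups, with log2 fold changes of 0.07 (95% interval -0.10 to 0.23) and -0.02 (95% interval -0.28 to 0.23). The value of Atp5g2 turned to 0.06 without WT replicate 3 and to 0.03 without Bmal1-/- replicate 3.

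**Figure D3:**
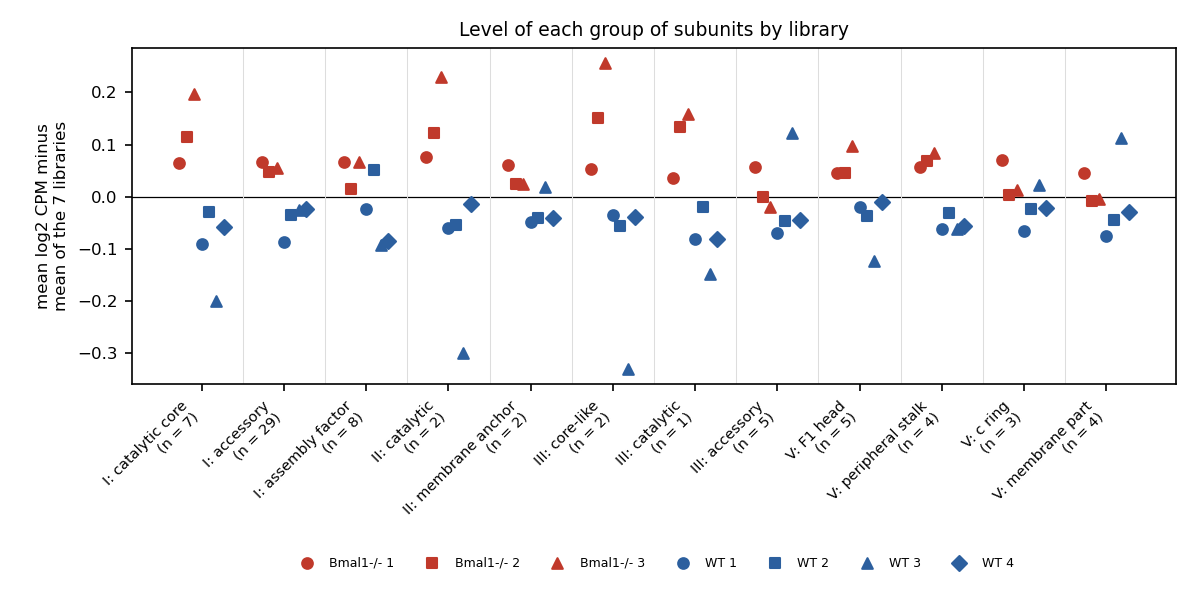
Mean over each group of subunits of the log2 CPM minus its mean over the 7 libraries (vertical axis, log2 units), one point per library, with Bmal1-/- in red, WT in blue and the number of genes below each group. Core genes of complex I lie between 0.06 and 0.20 in Bmal1-/- and between -0.20 and -0.03 in WT, and WT replicate 3 is the lowest library for the catalytic and core-like groups but the highest for the accessory genes of complex III and the membrane genes of complex V.

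Levels between genes can be compared only per length, as CPM per kilobase of annotated exon. In WT, Atp5b (246 ± 26.8, SD over 4 libraries) and Atp5a1 (239 ± 22.4) had the highest means. Uqcr10 (177 ± 9.32), Uqcrh (143 ± 7.74), Atp5k (139 ± 7.87) and Ndufa2 (129 ± 12.96) came next. Ndufa4 was at 114 ± 4.36 and Atp5g3 at 110.4 ± 2.86. The genes share the same libraries, so these SDs do not measure the difference between genes. The order is by mean, and differences between neighbouring genes were not tested. Sdha, the highest of complex II, was at 93.2 ± 10.6 CPM per kilobase. The lowest were the assembly factor Ndufaf6 (4.48 ± 0.563), Ndufa4l2 (4.88 ± 1.49) and Atp5s (6.25 ± 0.833), an ATP synthase gene by name. Exon length sums every annotated exon, so a gene with long, little-used exons is understated.

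WT replicate 3 moved the members in opposite directions, and this ran with gene length. It was the lowest of the 7 libraries for 30 members and the highest for 17, and Bmal1-/- replicate 3 was the highest for 33. In the 25 shortest members (exon length 419 to 1251 bases), WT replicate 3 was higher than the other WT libraries by a median of 0.10 on the log2 scale. In the middle 25 and the 25 longest (2313 to 8086 bases) it was lower, with medians of -0.05 and -0.06. The median log2 fold change between genotypes was 0.05, 0.12 and 0.15 from the shortest to the longest 25, and 0.08, 0.12 and 0.14 without WT replicate 3. Across the 75 genes, Spearman's rho was 0.34 between length and log2 fold change (0.21 without WT replicate 3) and -0.46 between length and the deviation of WT replicate 3, and it was 0.18 and -0.27 across all genes with a length. These are descriptions across genes, which share the same 7 libraries and are not independent. Removing a trend with GC content and length in each library gave medians of 0.23, 0.27 and 0.22 in the same order, a positive log2 fold change in 72 of 75, and 1 member called higher by edgeR, where 1.02% of all genes were called higher.

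**Figure D4:**
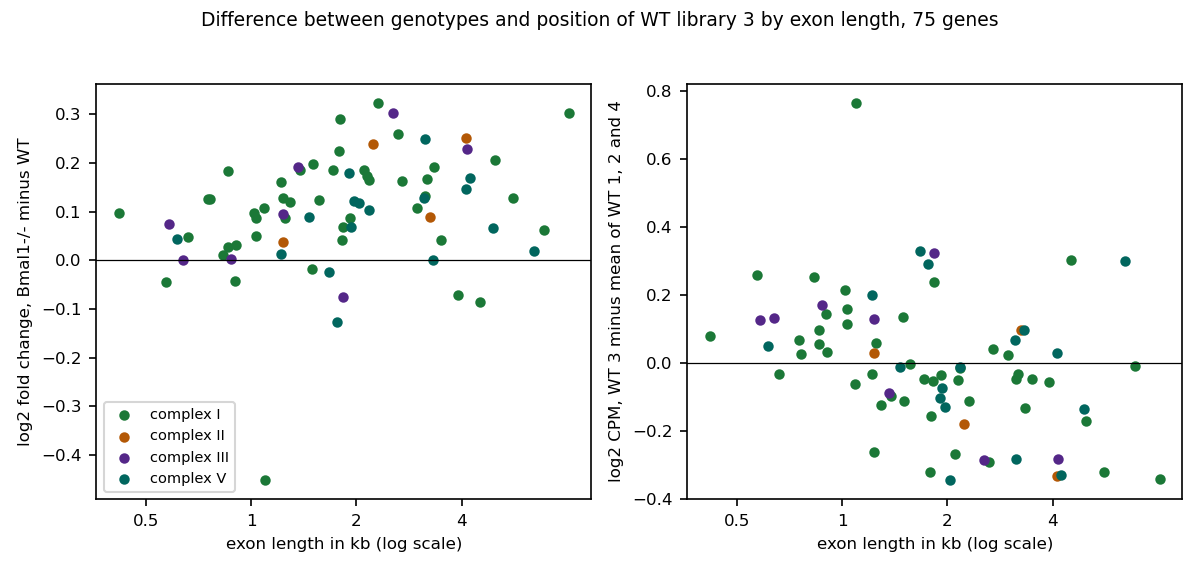
Log2 fold change (left, Bmal1-/- minus WT) and log2 CPM of WT replicate 3 minus the mean of the other WT libraries (right) against exon length in kilobases on a log scale, one point for each of the 75 genes and colored by complex. The right panel falls from mostly positive values for short genes to mostly negative values for long ones, with Spearman's rho of -0.46 across genes.

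The related pathways were taken from lists of genes, read against the 0.654% of all genes called higher and the 0.915% called lower. Of 16 complex IV subunits, 0 were called higher and 1 lower, with a median log2 fold change of 0.09. Their groups did not overlap with Bmal1-/- above in 6 (37.5%, against 13.4% of all genes) and below in 2 (12.5%, against 13.5%). Cycs and Cyc1, for cytochrome c and the c1 of complex III, had log2 fold changes of 0.08 and 0.15 and were not called. Of 13 tricarboxylic acid cycle genes, 0 were called, 11 had a positive log2 fold change and the median was 0.18 (0.12 without WT replicate 3). The groups did not overlap with Bmal1-/- above in 6 of the 13 (46.2%, against 13.4% of all genes). They did not overlap with Bmal1-/- below in 1, Dlst (7.69%, against 13.5%). The 17 glycolysis genes gave 0 calls and a median of 0.07, with log2 fold changes from -0.40 to 0.56. Their groups did not overlap with Bmal1-/- above in 5 (29.4%) and below in 1 (5.88%). The 16 genes of carriers, pores, import and chaperones gave 0 calls and a median of 0.06. Their groups did not overlap with Bmal1-/- above in 4 (25%) and below in 0. The 19 assembly factors of other complexes and others of complex I gave 0 calls and a median of 0.04, without overlap above in 2 (10.5%) and below in 0.

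Genes that make or regulate mitochondria had medians near 0. Of 77 mitochondrial ribosomal protein genes tested, 0 were called, 22 had a positive log2 fold change and the median was -0.02 (0.01 without WT replicate 3). Of 11 regulators of biogenesis 0 were called, 5 had a positive log2 fold change and the median was -0.02. That median covers values on both sides of 0. The groups did not overlap with Bmal1-/- above in 1, Ppargc1b (log2 fold change 0.57), 9.09% against 13.4% of all genes. They did not overlap with Bmal1-/- below in 3, Pprc1 (-0.26), Gabpa (-0.20) and Nrf1, 27.3% against 13.5%. Ppargc1a, the coactivator that drives mitochondrial biogenesis, overlapped between groups. It was at 29.9 ± 4.55 CPM (SD, n = 3) in Bmal1-/- and 25.1 ± 7.15 CPM (SD, n = 4) in WT. Nrf1, whose motif was counted above, was at 21.3 ± 0.997 and 24.2 ± 1.98 CPM, with a log2 fold change of -0.18 (SE 0.08, edgeR adjusted p = 0.259). The 13 subunits encoded in mitochondrial DNA were not analysed here.

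**Figure D5:**
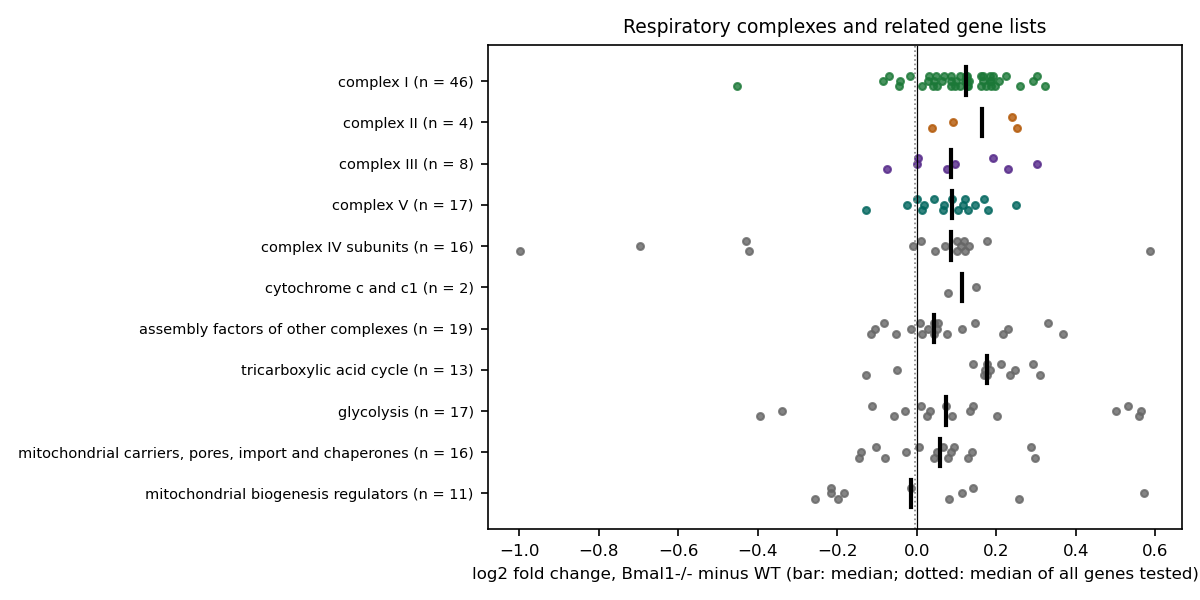
Log2 fold change (Bmal1-/- minus WT) of each gene in the 4 complexes and in 7 related lists, one point per gene, with the median as a black bar, 0 as a solid line and the median of all genes tested as a dotted line. The medians of complexes I, II, III and V are 0.12, 0.16, 0.08 and 0.09, that of the tricarboxylic acid cycle is 0.18 and that of the biogenesis regulators -0.02.

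Marker values differed between groups or libraries in some cell types more than in others. The median log2 fold change was 0.08 for oligodendrocyte, 0.02 for astrocyte and -0.10 for microglia markers, with 0 calls. It was -0.19 for pericyte, -0.29 for ependymal, -0.37 for endothelial, -0.70 for fibroblast and -0.80 for neutrophil markers, with 1 call, lower, among the endothelial ones. Among all genes, 0.654% were called higher and 0.915% lower. All 14 neuron markers had a positive log2 fold change, with a median of 0.55 and 0 calls, or 0.36 without WT replicate 3. Their sums were 7337, 7309 and 8688 CPM in Bmal1-/- and 6604, 7110, 3074 and 5234 CPM in WT, so the groups did not overlap and the order of the libraries was extreme in the same 2, Bmal1-/- replicate 3 and WT replicate 3. The 10 macrophage markers had a median of -0.31, or -0.08 without WT replicate 3, with 0 calls, and their sums overlapped between groups. The 6 red cell markers were all lower in Bmal1-/- without overlap (100%, against 13.5% of all genes). They gave 1 call, lower, and a median of -2.48, or -1.93 without WT replicate 3. Their sums were 62.7, 39.6 and 27.1 CPM in Bmal1-/- and 154, 173, 466 and 164 CPM in WT, again with Bmal1-/- replicate 3 and WT replicate 3 as the extremes. The 4 Schwann cell markers were also all lower without overlap (100%, against 13.5%), with 0 calls and a median of -2.32. Their sum was highest in WT replicate 2, at 548 CPM, and was 294 CPM in WT replicate 3. Snap25, a synaptic protein and 1 of the 14 neuron markers, was at 456 to 1689 CPM over the 7 libraries of both groups together. The part of cell makeup in the respiratory chain values was not tested.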

How the data were processed

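Poly-A RNA from 1 spinal cord segment per mouse was sequenced with a stranded kit. The authors aligned the reads with Tophat2 to mm10 (GRCm38) and deposited raw read counts per gene made with HTSeq 0.10.0, after quality checks with FastQC 0.10.1. The annotation release and strand setting are not given in the sources used here. Of 21965 genes, 3039 had no count. Groups came from the sample titles.

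From these counts, edgeR 4.0.16 (R 4.3.3) gave TMM-scaled CPM, filtered genes with filterByExpr (15743 tested) and ran its quasi-likelihood test of genotype over all 7 libraries, with Benjamini-Hochberg adjustment over all genes tested. Every adjusted p is edgeR's unless DESeq2 is named. Intervals are 95% intervals of the log2 fold change from that fit. With 1 library per mouse, p-values measure the spread between mice. The study's own test, DESeq2 1.42.0, was an alternative, as were limma 3.58.1 (voom), 2 other scalings, 2 other filters, sex as a covariate, a replicate block, removal of a GC and length trend (mgcv 1.9.3) and leaving out each library. The test was checked on simulated counts with larger changes than those of the members and a smaller dispersion than in these data. That check does not show whether changes of the members' size would be called. Gene positions and exon lengths came from GENCODE M21 (21939 of 21965 IDs matched) and promoters from RefSeq. Figures used matplotlib 3.10.9.

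Members, gene lists and tests were chosen with earlier results of these data known. Members named with values are the 5 highest and 5 lowest by log2 fold change, the Sdh genes, the most abundant gene per length of each complex, and Ndufa4, Ndufa4l2, Atpif1 and the c ring genes. One member that this rule names is not reported here. The other members named with values were chosen after their values were seen.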

Additional observations from a re-analysis of the deposited data

Results flagged for a closer look

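In 5 of the members named by rule and reported here, 1 WT library stood apart from the other 3 by Dixon's test at the 95% level. WT replicate 3 was low for Uqcrc2 (129.9 CPM, others 157.5 to 159.1), Ndufv1 (115.4, others 140.0 to 142.8) and Atp5b (874.1, others 1080 to 1118). It was high for Uqcrq, at 125.1 CPM against 98.2 to 101.7. For Ndufaf4 the library apart was WT replicate 2, at 28.7 CPM against 24.4 to 25.0. Over all 75 members 12 were flagged (16%), 11 of them in WT replicate 3 (7 low and 4 high), against 9.64% of all genes tested. The 7 include Uqcrc1 (180.6 CPM in WT replicate 3, others 217.5 to 221.7) and Atp5a1 (643.0, others 780.6 to 787.4), which were named for another reason. Chance flags about 1 in 20 groups. The part of cell makeup in these values was not tested.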

How the results depend on the processing

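No member was called lower under the alternatives run. The number called higher was 14 with DESeq2, 1 with the GC and length trend removed, and 0 to 2 when 1 library was left out, with 2 only without WT replicate 3. Adding complex IV and cytochrome c gave 1 lower call (Cox6b2), and leaving out libraries gave 0 among the members. With the trend removed, the median log2 fold changes of complexes I, II, III and V were 0.25, 0.25, 0.26 and 0.215 while the median of all genes was 0.02, and the share of all calls that were lower went from 58.3% to 42.7%. Upper-quartile scaling gave 0.0946, 0.0554 and 0.0612 for I, III and V. Structural subunits of complex V alone gave 0.0785. Leaving out 1 library gave 0.10 to 0.12, 0.14 to 0.18, 0.0535 to 0.12 and 0.0781 to 0.11 for I, II, III and V. Among the members named by rule, the sign turned for 4. With the trend removed Atp5e was 0.00525, Uqcrq 0.0577, Ndufa2 0.14 and Atp5g2 0.0143. Leaving out 1 library gave -0.118 to 0.0117 for Uqcrq, -0.0868 to 0.0233 for Ndufa2 and -0.0876 to 0.0635 for Atp5g2, the highest each without WT replicate 3, and Atp5g2 was 0.03 without Bmal1-/- replicate 3. The cause was not tested. Over all genes edgeR called 103 higher and 144 lower, DESeq2 573 and 921, the trend-removed fit 160 and 119, and the fits without 1 library from 30 and 27 (without Bmal1-/- replicate 1) to 291 and 439 (without WT replicate 3). Members higher at an unadjusted p under 0.05, 25 with all libraries, numbered 8 to 30 when 1 library was left out, 54 with the trend removed, 18 with sex as a covariate and 2 with the replicate block. The share of all genes higher at that p is given only with all libraries (8.64%) and without WT replicate 3 (11.2%). With the replicate number as a block, 0 genes and 0 members were called, and the smallest adjusted p of a member was 0.461. The correlations of same-numbered libraries were -0.17, 0.18 and -0.29. In both groups replicates 1 and 2 were female and replicate 3 was male, so the block partly follows sex. Bmal1-/- replicate 3 was the only male of its group. With sex as a covariate, edgeR called 0 members, where it called 1.11% of all genes, and the smallest adjusted p of a member was 0.117. The common dispersion was 0.0342, estimated over 3 and 4 mice.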

Other observations

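Complex IV has subunits with tissue-specific forms, which were counted at low levels here and are named with their values in view. Cox6b2, the testis form of a subunit, fell in Bmal1-/-, with 2.54, 2.76 and 2.18 CPM against 4.49, 4.47, 6.32 and 4.69 CPM in WT, a log2 fold change of -0.999 (SE 0.17, edgeR adjusted p = 0.0433). Its adjusted p was up to 0.200 when 1 library was left out. Cox7a1, the heart and skeletal muscle form of another subunit, was at 8.90 ± 0.282 CPM (SD, n = 3) against 5.92 ± 1.12 CPM (SD, n = 4) and was not called by edgeR (adjusted p = 0.131), though DESeq2 called it (adjusted p = 0.0141). Cox6a2, also a muscle form, was at 0.71 to 1.19 CPM in Bmal1-/- and 1.29 to 2.02 CPM in WT, with an edgeR adjusted p of 0.192. Cox4i2 (log2 fold change -0.42, edgeR adjusted p = 0.270) and Cox8b (-0.43, edgeR adjusted p = 0.485) overlapped between groups. Of the 17 skeletal muscle markers, 13 were called lower in Bmal1-/-, where 0.915% of all genes were. The part of muscle in these values was not tested.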
